A study of Mus musculus with 18 samples.

Results

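Effector CD8+ T cells labelled cKO for GRP75 were compared with naive CD8+ T cells of the same label. The comparison holds 6 of the 18 RNA sequencing libraries of the study, namely 3 libraries of cKO effector cells and 3 of cKO naive cells, taken by their labels. GRP75, encoded by Hspa9, is a chaperone of the mitochondrial matrix, and cKO marks its conditional knockout; the Cre driver and the floxed allele are not given in the sources used here. The mice were 8 weeks old, naive cells were taken from their spleens and lymph nodes, and the effector cells were made from naive cells in culture; all libraries are labelled as untreated. A WT effector group and a WT naive group, 3 libraries each, were used to ask whether the change from naive to effector cells differed between genotypes. Poly-A selected RNA was sequenced, and the labels do not say whether the 3 libraries of a group came from separate mice, so the errors and p-values below measure the spread between these libraries.

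A naive CD8+ T cell is a quiescent lymphocyte that recirculates through lymphoid organs, guided by homing receptors such as CCR7 and kept alive by interleukin 7. Once its T cell receptor is engaged, it enters the cell cycle, remodels its metabolism and can become an effector cell, which kills target cells with granzymes and perforin and secretes interferon gamma. The transcription factors TCF1 and LEF1 are known to hold the naive programme, and T-bet, Blimp-1, ID2 and ZEB2 drive the effector programme. GRP75 helps to pull imported proteins into the mitochondrial matrix and assists iron-sulfur cluster assembly. Mammalian cells whose mitochondria are stressed are known to activate the transcription factor ATF4, whose targets include amino acid transporters, tRNA synthetases and enzymes of serine metabolism.

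The 6 cKO libraries held between 15473340 and 18049774 reads. Levels below are in CPM, reads scaled to a common library size, after TMM normalization of the 6 libraries. Levels of X and Y genes are instead scaled to library totals, without TMM. So are levels on the scale of all 12 libraries, used beside WT values and for marker sums. Log2 fold changes are effector over naive, so that a positive value means a higher level in effector cells. Levels are shares of the RNA in a library, and fewer cells of a type and less RNA per cell cannot be told apart in bulk samples. The sexes of the mice are not given in the labels. Reads of genes on the Y chromosome were present in the cKO naive libraries, at a mean of 187 CPM for Ddx3y and 109 CPM for Eif2s3y. These genes are not listed in the effector table. Xist, transcribed from the inactive X chromosome of female cells, lay between 772 and 801 CPM in cKO effector libraries, against 265 to 298 CPM in cKO naive libraries. The sex composition of the libraries and the cell state therefore cannot be told apart in this comparison, and genes of chromosomes X and Y were left out.

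Hspa9 itself (ENSMUSG00000024359, GRCm39, chromosome 18, 35070467 to 35087410) was measured in every library labelled cKO. Its level was 149.9, 169 and 165.8 CPM in the cKO effector libraries, against 404, 418 and 382 CPM in the cKO naive libraries. Hspa9 RNA was thus readily detected under the knockout label, and the naive libraries lay well above the effector libraries. The log2 fold change was -1.31 (SE 0.06, edgeR adjusted p = 1.1e-11), with 2.49 times the effector level in naive cells. On the scale of all 12 libraries, Hspa9 had 151 ± 9.63 CPM in cKO effector cells and 136 ± 5.44 CPM in WT effector cells, and 429 ± 19.4 CPM in cKO naive cells and 245 ± 11.7 CPM in WT naive cells (SD, n = 3 each). On this scale, which is without TMM, the libraries labelled cKO therefore did not hold less Hspa9 RNA than the WT libraries in either state. Reads were counted over the whole gene, and whether they cross a deleted part was not tested.

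The defining transcripts of CD8+ T cells were present in both states. Cd8a, which encodes the alpha chain of CD8, had 1714, 1833 and 1849 CPM in cKO effector libraries and 1360, 1332 and 1334 CPM in cKO naive libraries. Cd8b1, for the beta chain, averaged 877 ± 15.9 CPM in effector and 832 ± 11.0 CPM in naive cells (SD, n = 3 each), a log2 fold change of 0.08 that did not pass the test (SE 0.05, edgeR adjusted p = 0.19). Cd4 stayed low, at a mean of 6.70 CPM in effector and 3.44 CPM in naive libraries.

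Most tested genes moved between the states. Of 14007 genes with at least 10 reads in at least 3 of the 6 libraries, 5037 (36%) were higher and 5095 (36.4%) were lower in cKO effector cells by edgeR's quasi-likelihood test at an adjusted p under 0.05. A change of at least 2-fold was called for 2303 higher genes (16.4%) and 2299 lower genes (16.4%). The median log2 fold change of all tested genes was -0.02. These directions are relative to the scaling, since scaling to library totals in place of TMM moved every gene by -0.19 and gave 4093 higher and 6337 lower genes. The shares of all tested genes are the background against which the counts of each gene group below are set.

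**Figure D1:**
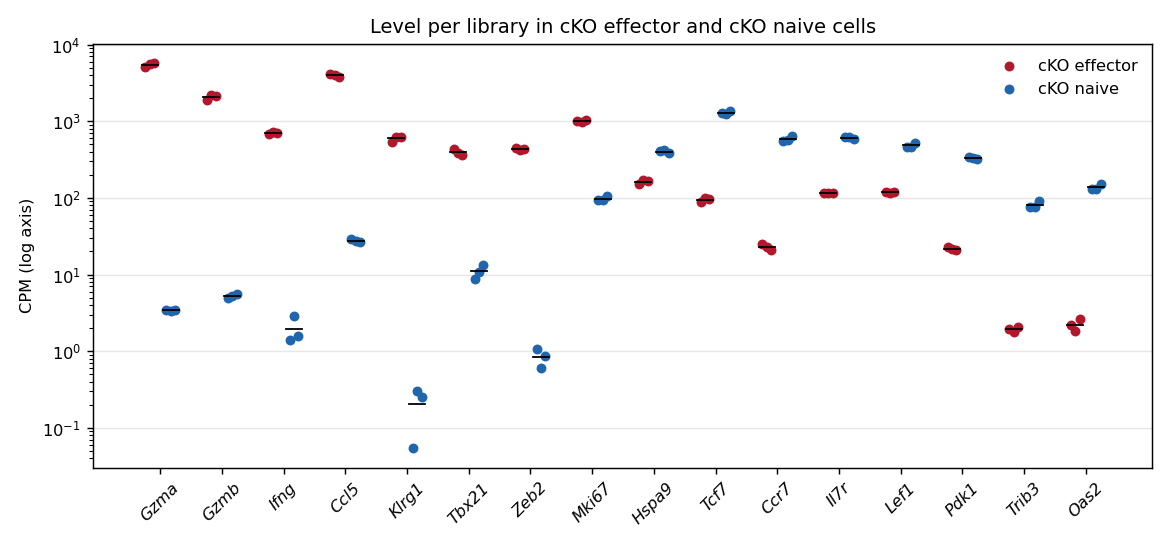
Level of 16 genes in each of the 6 cKO libraries, in CPM on a log axis; points are libraries, effector left and naive right for each gene, and lines are the means of 3 libraries. Gzma lies between 5054 and 5704 CPM in effector and near 3.4 CPM in naive libraries, while Tcf7 lies at 89.3 to 99.6 CPM in effector and 1233 to 1371 CPM in naive libraries.

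The 10 largest increases named by rank included genes of receptors and granule proteins of effector cells, beside genes of other kinds. Klrg1, which encodes an inhibitory receptor that marks short-lived effector cells, had 542, 623 and 620.5 CPM in cKO effector libraries and 0.05, 0.30 and 0.25 CPM in cKO naive libraries, a log2 fold change of 11.51 (SE 0.15, edgeR adjusted p = 2.7e-18). Gzma, for granzyme A, had 5054, 5632 and 5704 CPM in effector libraries, against 3.40, 3.39 and 3.43 CPM in naive libraries. Its log2 fold change was 10.64 (SE 0.09, edgeR adjusted p = 6.8e-20). Granzyme K followed through Gzmk (10.53), and S1pr5, a sphingosine 1-phosphate receptor that guides exit from tissues, rose by 10.39. Cx3cr1, the receptor of fractalkine and a mark of highly differentiated effector cells, had 592, 597 and 578 CPM in effector libraries and 1.29, 0.85 and 0.81 CPM in naive libraries. Esm1 (10.33), the integrin chain gene Itgax (9.28) and the transcription factor gene Zeb2 (8.97) were also among these 10 genes. Trim16, a ubiquitin ligase gene, had 1652 reads in the effector libraries and 3 in the naive libraries together, a ratio of 555 with a 95% interval of 189 to 2692. Beta globin, Hbb-bs, was also among them, with 50, 47.4 and 44.4 CPM in effector libraries and 1 read in the naive libraries together, a ratio of 2118 with a 95% interval of 380 to 83700 for counting error only. The ratios of Trim16 and Hbb-bs use library totals without TMM.

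The 10 largest decreases named by rank were in genes of varied function. Kcna2, which encodes a voltage-gated potassium channel, had 0.77, 0.75 and 0.21 CPM in cKO effector libraries and 62.6, 61.9 and 60.7 CPM in cKO naive libraries, a log2 fold change of -6.71 (SE 0.17, edgeR adjusted p = 6.3e-15). Igfbp4, for a binding protein of insulin-like growth factors, averaged 6.44 CPM in effector and 472 CPM in naive cells, and fell by 6.20 on the log2 scale. Ccr9, the chemokine receptor for homing to the gut, fell by 5.94. The tetraspanin gene Tspan9 (-6.25), the interferon-induced gene Ifi44 (-6.14), the nucleoside transporter gene Slc28a2b (-5.99), the antiviral gene Oas2 (-5.95), Pmepa1, a brake on TGF-beta signalling (-5.94), Tmie (-5.93) and Ramp1 (-5.91) made up the rest. Slc28a2b has a close paralog, so its counts are less certain.

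Genes of the killing machinery rose together. Of 19 tested genes of cytotoxic granules and death ligands, 18 rose, 12 of them at least 2-fold, and none fell, with a median log2 fold change of 2.41 beside -0.02 for all tested genes. Gzmb, for granzyme B, had 1881, 2168 and 2154 CPM in cKO effector libraries and 4.91, 5.27 and 5.55 CPM in cKO naive libraries. That is a log2 fold change of 8.62 (SE 0.09, edgeR adjusted p = 3.8e-19), with no overlap of the groups. Prf1, for perforin, averaged 295 ± 12.0 CPM in effector and 27.1 ± 1.61 CPM in naive cells (SD, n = 3 each). Fasl, the ligand of the death receptor FAS, rose by 7.49, and Serpinb9 and Serpinb6b, inhibitors of granule proteases, rose by 4.72 and 4.46. The gene not called was Stxbp2 (log2 fold change -0.06, adjusted p = 0.40), named here after its value was seen. Summed over the list, 1.18 ± 0.05% of the reads of cKO effector libraries and 0.16 ± 0.002% of those of cKO naive libraries came from these genes (SD, n = 3 each; exact two-sided permutation p = 0.1, the smallest that 3 against 3 libraries allow).

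Cytokine and chemokine genes were split. Of 20 members 13 were tested, and 9 rose and 4 fell. Ifng, the gene of interferon gamma, had 690, 732 and 699 CPM in cKO effector libraries and 1.40, 2.84 and 1.56 CPM in cKO naive libraries, a log2 fold change of 8.52 (SE 0.13, edgeR adjusted p = 9.4e-18). Ccl5, a chemokine that attracts T cells and monocytes, had 4127, 4067 and 3778 CPM in effector libraries, against 28.9, 27.4 and 26.9 CPM in naive libraries. Ccl3 and Ccl4, chemokines for other leukocytes, rose by 6.88 and 7.33, and Tnf rose by 1.89. Ltb, a subunit of lymphotoxin, fell by 1.30. Il2, the growth factor of activated T cells, is listed in the effector table only, with 4 reads in the 3 cKO effector libraries together (1, 2 and 1).

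The transcription factors of the 2 states moved in opposite directions. Among 22 tested effector-fate factors, 18 rose and 1, Stat5a, fell (-0.32; chosen after its value was seen), with a median log2 fold change of 1.28. Tbx21, the gene of T-bet, had 430, 383 and 360.5 CPM in cKO effector libraries and 8.79, 10.9 and 13.3 CPM in cKO naive libraries, a log2 fold change of 5.16 (SE 0.11, edgeR adjusted p = 5.8e-16). Zeb2 averaged 434 CPM in effector and 0.85 CPM in naive cells. Prdm1, the gene of Blimp-1, rose by 6.00, Bhlhe40, a regulator of cytokine production, by 5.98, and Hopx by 3.74. Id2 rose by 1.26 and averaged 411 CPM in effector and 172 CPM in naive cells.

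Of 42 tested genes of the naive state and of quiescence, 32 fell and 8 rose, with a median of -1.57. Tcf7, the gene of TCF1, had 89.3, 99.6 and 96.0 CPM in cKO effector libraries, against 1276, 1233 and 1371 CPM in cKO naive libraries. Its log2 fold change was -3.77 (SE 0.07, edgeR adjusted p = 6.6e-17), and the groups lay far apart. Lef1 averaged 118 CPM in effector and 482 CPM in naive cells and fell by 2.03. Klf2, which drives the recirculation genes, had 647, 553 and 509 CPM in effector libraries and 894, 869 and 1146 CPM in naive libraries and fell by 0.77. The 8 members that rose ranged up to 1.15 and included the antiproliferative genes Btg2 (1.15) and Tob1 (1.12), named after their values were seen.

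Homing receptors followed the same division. Of 34 tested homing receptor, chemokine receptor and integrin genes, 23 rose and 9 fell. Ccr7 had 24.9, 22.7 and 20.7 CPM in cKO effector libraries and 547, 561.5 and 632 CPM in cKO naive libraries, a log2 fold change of -4.67 (SE 0.08, edgeR adjusted p = 6.1e-17). Cxcr6, a receptor for homing to inflamed tissue, averaged 182 CPM in effector and 27.0 CPM in naive cells (2.75).

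All 20 tested genes of the NKG2 and KLR families, receptors shared by NK cells and differentiated CD8+ T cells, rose at least 2-fold. Klrc1, for the inhibitory receptor NKG2A, had 726, 656 and 630 CPM in cKO effector libraries and 2.48, 2.30 and 1.248 CPM in cKO naive libraries, a log2 fold change of 8.36 (SE 0.13, edgeR adjusted p = 1.1e-17). Klrk1, for the activating receptor NKG2D, rose by 6.18 and Klrd1, for CD94, the partner chain of NKG2A, by 1.90. Klra3 (5.20) and Klra7 (4.60) belong to the Ly49 family, whose near-identical copies make their counts uncertain. Of 25 members of the 2 families, 2 were listed in 1 table only and 3 had too few reads.

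Inhibitory receptors did not move as a block. Of 20 tested genes of this list, 13 rose and 4 fell. Havcr2, the gene of TIM-3, averaged 109 CPM in effector and 0.28 CPM in naive cells (8.60), Entpd1, the gene of CD39, rose by 5.98, and Lag3 had 23.4, 25.1 and 19.6 CPM in effector libraries and 2.16, 3.51 and 3.93 CPM in naive libraries. Pdcd1, the gene of PD-1, was low in both states, at 8.03 CPM in effector and 3.80 CPM in naive cells (1.08, SE 0.22, edgeR adjusted p = 2.9e-04). Ctla4 fell by 0.47, with 61.6, 70.25 and 71.4 CPM in effector libraries and 102, 95.2 and 84.25 CPM in naive libraries. Tox (-3.68), Cd200 (-2.59) and Btla (-1.95) were the other members that fell, named after their values were seen.

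Cytokine receptor genes moved both ways. In the interleukin receptor and cytokine signalling list, 17 of 36 tested genes rose and 16 fell, beside 36% and 36.4% of all tested genes. The median of this list changed sign with the scaling. Il7r, the receptor chain for the survival factor interleukin 7, had 115.7, 114.9 and 115.8 CPM in cKO effector libraries, against 624, 619 and 590.5 CPM in cKO naive libraries (-2.40, SE 0.05, edgeR adjusted p = 1.2e-15). Il4ra fell by 1.56 and Il6st, the shared receptor chain of the interleukin 6 family, by 3.05. Il18rap and Il18r1, the 2 receptor chains of interleukin 18, averaged 1538 and 656 CPM in effector cells and 15.9 and 42.4 CPM in naive cells. Il2ra rose by 3.42 and Il2rb by 1.62. Among costimulatory and TNF receptor family genes 15 of 26 rose and 8 fell, with Slamf7 (5.37), Cd44 (3.34) and Icos (1.60) higher and Tnfrsf4 (-1.20) lower.

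The T cell receptor complex changed little in size. Of 43 tested genes of the complex and of proximal signalling, 27 rose and 7 fell, but only 4 rose and 1 fell at least 2-fold. Cd3e rose by 0.24, a call that was lost under scaling to library totals (0.05, edgeR adjusted p = 0.40), and Lck, the kinase that phosphorylates the receptor chains, by 0.51. Dgka, a brake that consumes diacylglycerol, averaged 403 CPM in effector and 1082 CPM in naive cells and fell by 1.42. Among 8 GIMAP family genes, GTPases of lymphocyte survival, 7 rose, from Gimap5 (0.23, not called under library totals) to Gimap7 (2.47). Of 21 tested S100, annexin and galectin genes 19 rose, with Lgals1 at 1373 CPM in effector and 27.7 CPM in naive cells (5.63) and Anxa2 higher by 3.90.

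Immediate early genes, the first to respond to receptor signals, also divided. Of 28 tested, 22 rose and 4 fell. Nr4a1, a nuclear receptor induced by T cell receptor signals, averaged 1518 CPM in effector and 291.5 CPM in naive cells and rose by 2.38. Fos did the opposite, with 162, 152.2 and 152.0 CPM in cKO effector libraries and 681, 668 and 746 CPM in cKO naive libraries (-2.17, SE 0.06, edgeR adjusted p = 1.5e-14). Jun had a log2 fold change of -0.04 and was not called (SE 0.07, edgeR adjusted p = 0.61). Tnfaip3 (2.10) and Nfkbia (2.67), feedback inhibitors of NF-kappa-B, and the phosphatase gene Dusp5 (3.00) rose.

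**Figure D2:**
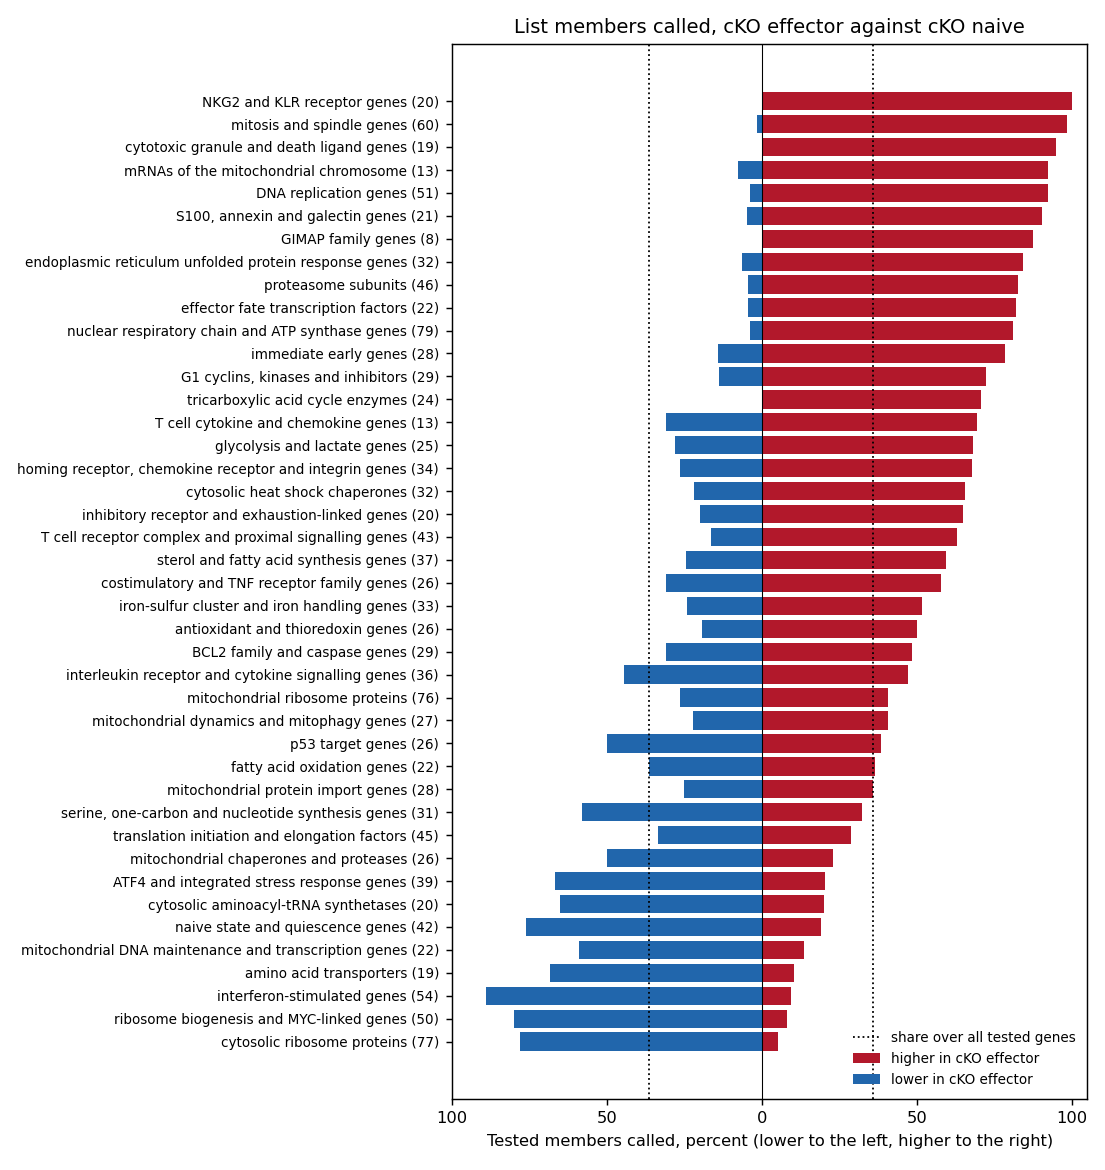
Percent of the tested members of each gene list that were called higher (right) or lower (left) in cKO effector than in cKO naive cells, with the number tested in brackets; dotted lines mark the shares over all tested genes, 36% higher and 36.4% lower. The NKG2 and KLR list (20 of 20) and the mitosis list (59 of 60) lie furthest to the right among the pathway lists, and the interferon, ribosome biogenesis and cytosolic ribosome lists lie furthest to the left.

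Cell division genes rose almost without exception. Of 60 tested mitosis and spindle genes 59 rose, all 59 at least 2-fold, and Smc4, a condensin subunit, fell by 0.38 (named after its value was seen). Mki67, the gene of the proliferation marker Ki-67, had 1006, 978 and 1028 CPM in cKO effector libraries and 92.8, 93.5 and 106.5 CPM in cKO naive libraries, a log2 fold change of 3.36 (SE 0.07, edgeR adjusted p = 2.1e-16). Top2a, which untangles DNA before chromosomes separate, had 756.5, 734 and 767 CPM in effector libraries, against 109.0, 109.3 and 112.8 CPM in naive libraries (2.77). Cdk1, the kinase that drives entry into mitosis, averaged 84.5 CPM in effector and 6.32 CPM in naive cells (3.74), and Ccnb1, its cyclin, rose by 4.55. Of 51 tested DNA replication genes 47 rose and 2 fell, with a median of 1.19, led by Rrm2 (3.33), the regulated subunit of ribonucleotide reductase. The helicase genes Mcm2 and Mcm5 rose by 0.79 and 1.54.

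Genes of the G1 phase were less uniform, with 21 of 29 rising and 4 falling. E2f2 and E2f8, transcription factors of the cell cycle, rose by 3.29 and 4.05. Ccnd2, for a D-type cyclin, fell by 1.21, at 265 CPM in effector and 614 CPM in naive cells. Cdk4 (0.09, SE 0.07, edgeR adjusted p = 0.23) and the inhibitor gene Cdkn1b (0.07, SE 0.05, edgeR adjusted p = 0.27) did not pass the test.

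Promoters of cell cycle genes are known for CCAAT boxes and for the cell cycle genes homology region, with the core TTTGAA. RefSeq promoter windows on GRCm38.p6, from 250 bases before to 50 after the start, were found for 50 of the 60 tested mitosis genes. CCAAT was found on either strand in 35 of them (70%), against 41.1% of 27025 genes, and TTTGAA in 36 (72%), against 20.2%. The windows of 2 of the genes above are printed because they hold both motifs, which stand in capitals on whichever strand they occur. Top2a lies at chr11:99024140-99024439 and Cdk1 at chr10:69352863-69353162, both on the minus strand, and each sequence is given 5′ to 3′ on the gene's strand.
Top2a: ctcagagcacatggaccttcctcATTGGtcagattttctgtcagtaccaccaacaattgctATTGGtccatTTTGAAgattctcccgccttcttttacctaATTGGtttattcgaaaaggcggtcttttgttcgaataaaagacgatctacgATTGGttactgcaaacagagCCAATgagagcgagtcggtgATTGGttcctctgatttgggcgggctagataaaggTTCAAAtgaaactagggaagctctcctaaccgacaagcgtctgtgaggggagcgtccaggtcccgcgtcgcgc
Cdk1: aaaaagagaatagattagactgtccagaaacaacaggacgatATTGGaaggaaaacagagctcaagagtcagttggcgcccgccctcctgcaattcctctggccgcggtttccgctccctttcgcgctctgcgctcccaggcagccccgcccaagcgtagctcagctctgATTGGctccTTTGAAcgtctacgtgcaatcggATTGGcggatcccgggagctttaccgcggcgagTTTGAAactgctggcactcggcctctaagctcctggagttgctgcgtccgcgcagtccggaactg
The Top2a window holds 6 CCAAT matches and 2 TTTGAA matches, and the Cdk1 window holds 3 and 2. Of the windows not printed, that of Mki67 holds 3 and 2, and that of Ccnb1 holds 2 CCAAT matches and no TTTGAA match. A match of letters does not show that a factor binds there.

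Transcripts of the mitochondrial chromosome formed a larger share of the RNA in cKO effector cells. They took 2.22%, 2.23% and 2.31% of the reads in effector libraries and 0.87%, 0.91% and 0.76% in naive libraries (means 2.26 ± 0.05% and 0.85 ± 0.08%, SD, n = 3 each; exact two-sided permutation p = 0.1, the smallest possible). Of the 13 mitochondrial mRNAs 12 rose and 10 rose at least 2-fold, with a median log2 fold change of 1.51. mt-Co1, for the catalytic subunit of cytochrome c oxidase, averaged 12434 ± 518 CPM in effector and 3016 ± 248 CPM in naive cells (SD, n = 3 each), a log2 fold change of 2.04 (SE 0.06, edgeR adjusted p = 7.8e-14). mt-Cytb, of complex III, rose by 1.77, and mt-Nd1 and mt-Nd5, of complex I, by 1.34 and 1.43. mt-Nd3 fell (-0.74, SE 0.19, edgeR adjusted p = 0.0026), at 8.87 CPM in effector and 14.7 CPM in naive cells. Near-identical copies of mitochondrial genes exist in the nuclear genome, so the counts of single mitochondrial mRNAs are uncertain where reads could be split.

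Nuclear genes of the respiratory chain rose by less. Of 79 tested nuclear genes of the chain and ATP synthase 64 rose and 3 fell, with a median of 0.77, and 17 rose at least 2-fold. Cox4i1 and Atp5a1 rose by 0.91 and 0.50, while Ndufs1 (0.06, SE 0.06, edgeR adjusted p = 0.36) and Sdha (0.07, SE 0.06, edgeR adjusted p = 0.31) did not pass the test. Cox6a2, the isoform of cytochrome c oxidase subunit 6A known from heart and skeletal muscle, went the other way, with 0.91, 1.00 and 1.19 CPM in cKO effector libraries and 37.5, 32.3 and 32.3 CPM in cKO naive libraries (-5.03, SE 0.16, edgeR adjusted p = 7.0e-14). Of 24 tricarboxylic acid cycle genes 17 rose and none fell, with Cs, for citrate synthase, higher by 0.60 and Idh3a by 1.00.

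Nuclear genes that maintain the mitochondrial genome and fold mitochondrial proteins fell more often than they rose. Of 22 tested genes of mitochondrial DNA maintenance and transcription 3 rose and 13 fell, with Twnk, the replicative helicase, lower by 1.36, Polrmt, the RNA polymerase, lower by 0.65 and Tfam not called (0.07, SE 0.08, edgeR adjusted p = 0.40). Of 26 tested mitochondrial chaperones and proteases 6 rose and 13 fell. Hspe1, the co-chaperonin, fell by 0.63, Lonp1, a matrix protease, by 0.41 and Dnaja3, a matrix partner of GRP75, by 0.94, whereas Hspd1 was not called (0.06, SE 0.06, edgeR adjusted p = 0.39). Dnajc15, a co-chaperone of the import motor, rose by 1.39. Mitochondrial ribosome proteins (31 of 76 higher, 20 lower) and import genes (10 of 28 higher, 7 lower) stood near the background share of higher genes. They lay below that of lower genes, and their median changed sign with the scaling. The same held for mitochondrial dynamics and mitophagy genes (11 of 27 higher, 6 lower). Fatty acid oxidation genes (8 of 22 higher, 8 lower) stood near both background shares, and their median changed sign too.

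Glucose metabolism shifted through a part of its genes. Of 25 tested glycolysis and lactate genes 17 rose and 7 fell, with a median of 0.82. Slc2a3 and Slc2a1, the glucose transporters of T cells, rose by 2.15 and 1.42, Hk2, which traps glucose in the cell, by 2.58, Pkm by 1.11 and Ldha by 0.84. Pdk1, which holds pyruvate back from the mitochondrion, had 22.6, 21.4 and 21.0 CPM in cKO effector libraries and 342, 334 and 325 CPM in cKO naive libraries (-3.95, SE 0.06, edgeR adjusted p = 2.5e-17). In sterol and fatty acid synthesis 22 of 37 tested genes rose and 9 fell. Abca1, which exports cholesterol, had 1.68, 3.01 and 2.94 CPM in effector libraries, against 104.9, 105.4 and 102.6 CPM in naive libraries (-5.35, SE 0.12, edgeR adjusted p = 1.6e-15), and Scd2 fell by 1.41.

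Ribosomal genes fell. Of 77 tested cytosolic ribosome protein genes 60 fell and 4 rose, with a median of -0.54, and their share of reads was 4.28 ± 0.04% in cKO effector libraries and 7.10 ± 0.54% in cKO naive libraries (SD, n = 3 each; exact two-sided permutation p = 0.1, the smallest possible). Rpl12 had 524, 540 and 525 CPM in effector libraries and 1478, 1456 and 1298 CPM in naive libraries (-1.41, SE 0.06, edgeR adjusted p = 3.1e-12). Rplp0 rose by 0.27, but was not called under library totals (0.08). Many ribosomal protein genes have processed pseudogenes that can take part of their reads. Of 50 tested ribosome biogenesis and MYC-linked genes 40 fell and 4 rose, with a median of -0.72: Myc averaged 79.25 CPM in effector and 274 CPM in naive cells (-1.79), Npm1 fell by 0.83 and Odc1 rose by 1.43. Translation factors showed no common direction, with 13 of 45 higher and 15 lower.

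Genes of the ATF4 pathway were lower in cKO effector cells, though Atf4 itself was not lower. Of 39 tested genes of this list 26 fell, 16 of them at least 2-fold, and 8 rose, with a median of -0.80. Trib3, a pseudokinase that feeds back on ATF4, had 1.96, 1.75 and 2.10 CPM in cKO effector libraries and 76.4, 76.5 and 90.05 CPM in cKO naive libraries, a log2 fold change of -5.38 (SE 0.12, edgeR adjusted p = 1.6e-15). Atf5, a transcription factor linked to mitochondrial stress, had 8.35, 7.90 and 8.40 CPM in effector libraries, against 85.8, 79.6 and 92.6 CPM in naive libraries (-3.39). In both genes the groups lay far apart. Atf4 rose by 0.28 (SE 0.06, edgeR adjusted p = 2.6e-04), with 344 CPM in effector and 283 CPM in naive cells, and was not called under library totals (0.09, edgeR adjusted p = 0.14), and Ddit3, the gene of CHOP, fell by 0.75. Chac1, which degrades glutathione, was near the limit of detection, at 0.20 CPM in effector and 1.02 CPM in naive cells.

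The amino acid supply genes were lower as well. Slc7a5, the large neutral amino acid transporter, had 55.8, 49.3 and 52.1 CPM in cKO effector libraries and 253, 236 and 268 CPM in cKO naive libraries (-2.27, SE 0.07, edgeR adjusted p = 3.4e-14), while its partner Slc3a2 was not called (0.06, SE 0.05, edgeR adjusted p = 0.30). Of 19 tested amino acid transporters 13 fell and 2 rose. Of 20 aminoacyl-tRNA synthetases 13 fell and 4 rose, with Cars lower by 2.14, Iars by 1.65 and Aars by 0.73, and Gars higher by 0.39. Of 31 serine, one-carbon and nucleotide synthesis genes 18 fell and 10 rose. The mitochondrial folate enzymes Shmt2 and Mthfd2 fell by 2.14 and 1.10, while Tyms, which makes thymidylate for DNA replication, rose by 2.71.

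ATF4 and its partners are known to bind C/EBP-ATF response elements, whose core is written here as TGATGNAA. Of 35 tested ATF4 list members with a RefSeq promoter window 10 (28.6%) held this core on either strand, against 4.51% of all 27025 genes. The windows of Trib3 (chr2:152344011-152344310, minus strand) and Chac1 (chr2:119350992-119351291, plus strand) on GRCm38.p6 are printed because each holds 1 match, shown in capitals; the windows of Atf4 and Ddit3 held no match.
Trib3: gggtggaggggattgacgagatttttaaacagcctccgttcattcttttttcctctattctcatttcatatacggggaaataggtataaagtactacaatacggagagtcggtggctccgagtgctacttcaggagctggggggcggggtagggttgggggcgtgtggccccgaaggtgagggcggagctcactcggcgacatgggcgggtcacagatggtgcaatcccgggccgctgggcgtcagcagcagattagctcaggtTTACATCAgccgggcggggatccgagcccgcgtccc
Chac1: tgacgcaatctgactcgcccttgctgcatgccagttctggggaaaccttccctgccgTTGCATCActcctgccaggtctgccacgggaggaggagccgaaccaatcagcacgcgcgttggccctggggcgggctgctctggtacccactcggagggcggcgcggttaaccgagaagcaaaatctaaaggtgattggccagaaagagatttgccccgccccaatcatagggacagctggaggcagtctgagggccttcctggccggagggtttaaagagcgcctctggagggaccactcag

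Interferon-stimulated genes were lower in cKO effector cells. Of 54 tested, 48 fell, 32 of them at least 2-fold, and 5 rose, with a median of -1.17. Oas2, an antiviral sensor of double-stranded RNA, had 2.17, 1.82 and 2.66 CPM in cKO effector libraries and 129.7, 129.7 and 152 CPM in cKO naive libraries, a log2 fold change of -5.95 (SE 0.12, edgeR adjusted p = 3.3e-16). Isg15, a ubiquitin-like modifier, had 11.8, 11.2 and 13.1 CPM in effector libraries, against 49.5, 43.9 and 35.9 CPM in naive libraries (-1.85). Irf7, a transcription factor of the interferon response, fell by 1.39, and Mx1 by 0.89. The 5 members that rose were Ly6a (1.85), Gbp3 (1.68), Irf1 (0.73), Ifit2 (0.60) and Gbp7 (0.30), named after their values were seen.

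The interferon-stimulated response element has the core TTTCNNTTTC. It was found on either strand in 23 of 34 tested members with a RefSeq promoter window (67.6%), against 3.99% of 27025 genes. The window of Irf7 held no match. The window of Isg15 (chr4:156200769-156201068, minus strand, GRCm38.p6) is printed because its 3 overlapping matches, in capitals, form a single run.
Isg15: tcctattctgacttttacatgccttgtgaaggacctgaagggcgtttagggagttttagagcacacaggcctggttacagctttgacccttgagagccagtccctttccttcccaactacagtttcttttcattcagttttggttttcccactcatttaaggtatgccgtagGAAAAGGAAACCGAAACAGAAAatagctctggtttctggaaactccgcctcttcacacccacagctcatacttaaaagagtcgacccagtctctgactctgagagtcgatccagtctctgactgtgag

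Genes of the proteasome and of folding in the endoplasmic reticulum rose more often than they fell. Of 46 tested proteasome subunits 38 rose and 2 fell, with a median of 0.56, among them Psma1 (1.10), Psmb5 (0.78) and the maturation factor gene Pomp (1.30). Of 32 tested unfolded protein response genes 27 rose and 2 fell. Hspa5, its central chaperone, averaged 1148 CPM in effector and 492 CPM in naive cells (1.22), and the sensors Ern1 and Atf6 rose by 2.94 and 3.01. Cytosolic heat shock chaperones rose in 21 of 32 cases and fell in 7, with Hspa8 at 0.47, Hsp90aa1 at 0.81 and the inducible Hspa1b at 2.37. Of 26 antioxidant and thioredoxin genes 13 rose and 5 fell, led among the named members by Glrx (2.83) and Txn1 (1.90), and Sod2 was not called (-0.05, SE 0.08, edgeR adjusted p = 0.64). Of 33 iron-sulfur and iron handling genes 17 rose and 8 fell, with the ferritin gene Fth1 higher by 0.76 and the transferrin receptor gene Tfrc lower by 0.42.

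Survival and death genes moved both ways, with 14 of 29 tested BCL2 family and caspase genes higher and 9 lower. Bcl2, which protects naive cells, had 153.6, 148.8 and 154.9 CPM in cKO effector libraries and 583, 576 and 518 CPM in cKO naive libraries (-1.88, SE 0.06, edgeR adjusted p = 8.6e-14). Bcl2l1, the gene of BCL-XL, rose by 1.39, and Mcl1 was not called (0.10, SE 0.05, edgeR adjusted p = 0.094). The death gene Pmaip1 rose by 3.48, and Bcl2l11, the gene of BIM, fell by 0.20. Of 26 tested p53 targets 10 rose and 13 fell, where 36% of all tested genes were higher and 36.4% lower. Cdkn1a, the cell cycle inhibitor p21, had 22.3, 21.9 and 20.1 CPM in effector libraries and 4.69, 5.45 and 3.87 CPM in naive libraries (2.20), and Trp53 itself fell by 0.94.

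Transcripts of other cell types were more frequent in the cKO effector libraries for most markers examined. Of 10 tested neutrophil markers all 10 rose, and their summed level was 58.1 to 63.7 CPM in effector libraries, against 0.84 to 1.38 CPM in naive libraries, on the scale of all 12 libraries. All sums here are on that scale, which is without TMM, while calls and levels of single genes used TMM of the 6 libraries. The 8 tested erythroid markers rose too, with sums of 131 to 137 CPM in effector and 27.1 to 32.9 CPM in naive libraries; 2 globin genes, Hba-a2 and Hbb-bt, had 0 reads in the naive libraries. Of 13 macrophage markers 12 rose, with sums of 188 to 194 CPM in effector and 134 to 138 CPM in naive libraries. Of 14 dendritic cell and MHC class II genes 12 rose, with sums of 1279 to 1317 CPM in effector and 671 to 774 CPM in naive libraries, and Cd74 at 198 CPM in effector and 19.4 CPM in naive cells. All 11 tested NK and innate lymphoid markers rose, with sums of 1215 to 1252 CPM in effector and 267 to 294 CPM in naive libraries, most of it from Nkg7, which CD8+ effector cells also express; Ncr1, more specific to NK cells, averaged 5.21 CPM in effector and 0.15 CPM in naive cells. B cell markers summed to 315 to 331 CPM in effector and 372 to 408 CPM in naive libraries, although 13 of 16 rose. Whether the B cell sums of the groups stay apart after TMM was not tested. Sums of gamma-delta markers were 116 to 121 CPM in effector and 71.4 to 80.5 CPM in naive libraries, those of CD4 and regulatory T cell markers 102 to 111 CPM in effector and 61.8 to 68.6 CPM in naive libraries, and those of stromal and endothelial markers 20.9 to 26.8 CPM in effector and 127 to 136 CPM in naive libraries, most of the last from Pecam1. The part of these transcripts in the gene group results above was not tested.

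Some genes are listed in only 1 of the 2 tables, and these were not tested. Among protein-coding genes with the most reads in the effector table alone were Cmklr1, a receptor of chemerin, with 773, 911 and 805 reads in the cKO effector libraries, Gpx8 with 319, 399 and 321 reads, and the neutrophil gene Mpo with 154, 198 and 126 reads. S100a4, an S100 gene of effector and memory T cells, had 30, 43 and 44 reads there. In the naive table alone, Trnp1 had 78, 106 and 85 reads and Sfrp2, a secreted modulator of WNT signals, had 93, 83 and 102 reads in the cKO naive libraries. A gene that is not listed in a table is read here as having no value, not as 0.

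The same change was then set beside that of WT cells, to see which parts of it differed with the genotype. Over 14731 genes tested in the 12 libraries, the changes in cKO and WT cells had a Pearson correlation of 0.87 across genes, which are not independent replicates. Of the genes called at 2-fold or more, 3690 were called in the same direction in both genotypes, 76.1% of the 4852 cKO calls and 76.7% of the 4810 WT calls. The difference of the change (cKO minus WT) was called for 1364 genes in the positive direction (9.26%) and 1783 in the negative (12.1%) by edgeR's interaction term at an adjusted p under 0.05. For 1796 of these genes the change was smaller in size in cKO cells, and for 773 it ran in opposite directions. Xist reads set the cKO naive libraries (265 to 298 CPM) apart from the other 3 groups, at 772 to 801 CPM in cKO effector, 857 to 932 CPM in WT effector and 870 to 1044 CPM in WT naive libraries. Y-linked reads set them apart from the WT naive libraries, where these genes had 0 reads. Sex composition therefore cannot be told apart from genotype and state in these differences. Markers of other cells also differed between the genotypes. Erythroid markers summed to 131 to 137 CPM in cKO effector and 39.5 to 41.6 CPM in WT effector libraries, and 5 of 8 had a positive difference. Neutrophil markers summed to 58.1 to 63.7 CPM in cKO effector and 17.5 to 21.5 CPM in WT effector libraries. Gamma-delta markers were higher in both states, with sums of 116 to 121 CPM in cKO effector against 29.8 to 32.2 CPM in WT effector libraries, and 71.4 to 80.5 CPM in cKO naive against 12.1 to 13.4 CPM in WT naive libraries. Reads of ribosomal RNA genes took 0.27 to 0.64% of cKO effector, 0.27 to 0.35% of cKO naive, 0.36 to 0.41% of WT effector and 0.32, 1.11 and 1.37% of WT naive libraries. The part of these values in the differences below was not tested.

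**Figure D3:**
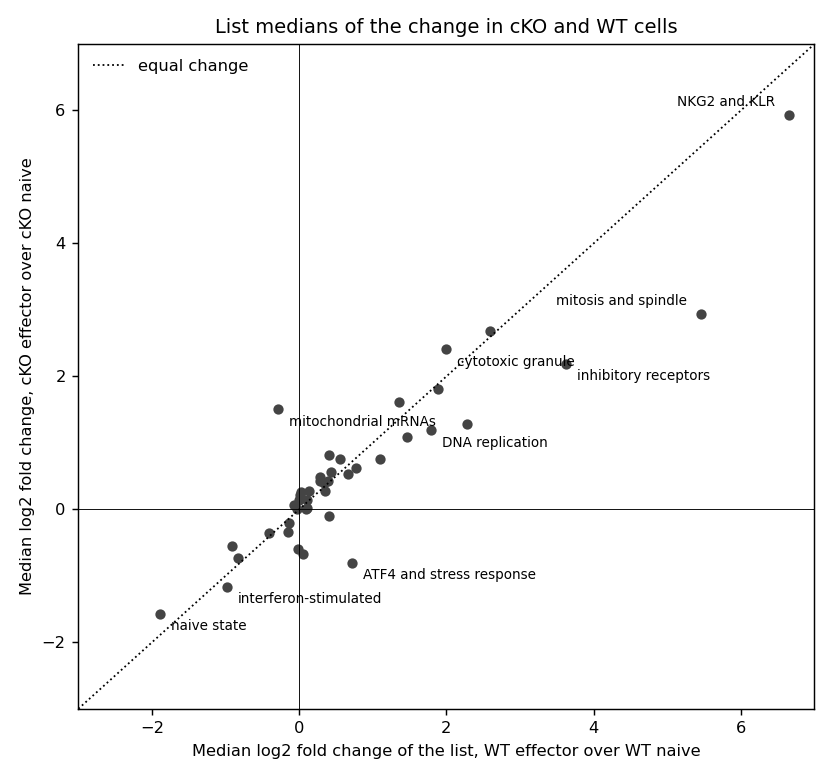
Median log2 fold change of effector over naive cells for each gene list, in cKO cells (vertical axis) against WT cells (horizontal axis); each point is a list, and the dotted line marks equal change. Mitosis and spindle genes lie below the line at 2.94 in cKO and 5.46 in WT cells, ATF4 genes at -0.81 and 0.72, and mitochondrial mRNAs above it at 1.505 and -0.286.

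The rise of cell division genes was smaller in cKO cells. Of the 60 tested mitosis and spindle genes 56 had a negative difference and 1 a positive one, with a median difference of -2.25, and of 51 DNA replication genes 37 had a negative difference and none a positive one (median -0.61). On the scale of the 12 libraries Mki67 had 943, 916 and 963 CPM in cKO effector, 98.6, 100.1 and 113.9 CPM in cKO naive, 1399, 1293 and 1314 CPM in WT effector and 15.2, 12.2 and 13.3 CPM in WT naive libraries. The cKO values thus lay below WT in effector cells and above WT in naive cells, without overlap. The difference was -3.35 (SE 0.10, edgeR adjusted p = 7.9e-15), and it was -2.80 for Top2a and -2.97 for Cdk1. Cdkn1a rose in both genotypes, with a difference of -5.40, and had 4.99 CPM in cKO naive cells against 0.08 CPM in WT naive cells. The WT naive libraries had 0.07, 0.19 and 0 CPM, so the size of this difference rests on few reads.

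**Figure D4:**
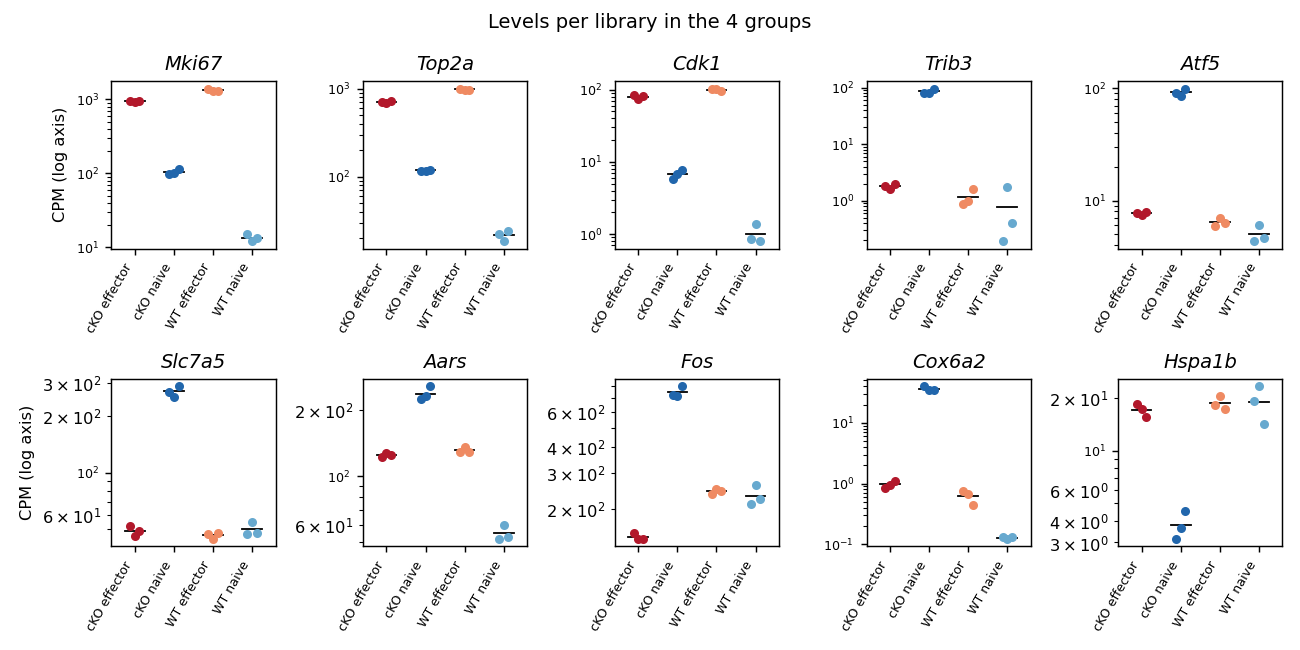
Levels of 10 genes in each of the 12 libraries, in CPM of library totals without TMM, on a log axis with its own range per gene. Points are libraries and lines are means of 3, in the order cKO effector, cKO naive, WT effector and WT naive. For Trib3, Atf5, Slc7a5, Aars, Fos and Cox6a2 the cKO naive libraries are the highest of the 4 groups, and for Hspa1b they are the lowest.

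ATF4 targets fell more, or rose less, in cKO than in WT cells. Of 39 tested genes of the list 31 had a negative difference and 2 a positive one (median -1.58), as had 13 of 20 aminoacyl-tRNA synthetases. Trib3 averaged 1.82 CPM in cKO effector, 86.5 CPM in cKO naive, 1.18 CPM in WT effector and 0.80 CPM in WT naive cells, a difference of -6.01 (SE 0.57, edgeR adjusted p = 1.8e-07). Atf5 differed by -3.82, Slc7a5 by -2.25, Aars by -2.08 and Ddit3 by -1.61. In each of these genes the cKO naive mean lay above the WT naive mean. Niban1, an ATF4 target, had 151 ± 3.79 CPM in cKO naive and 6.66 ± 0.73 CPM in WT naive cells (SD, n = 3 each), and its difference was -4.68 (SE 0.10, edgeR adjusted p = 2.4e-17). Soat2, which esterifies cholesterol, averaged 40.9 CPM in cKO effector, 63.4 CPM in cKO naive, 34.7 CPM in WT effector and 0.82 CPM in WT naive cells (-5.93). Cox6a2 differed by -7.30, with 36.3 CPM in cKO naive and 0.13 CPM in WT naive cells, so the size of its difference rests on few WT naive reads.

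**Figure D5:**
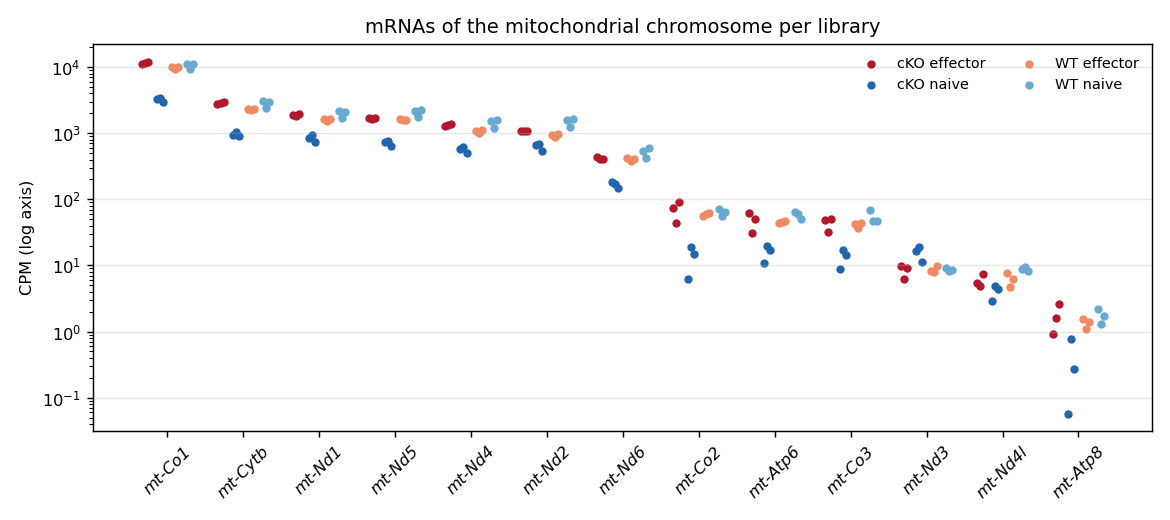
Level of the 13 mRNAs of the mitochondrial chromosome in each of the 12 libraries, in CPM of library totals without TMM. The axis is logarithmic, genes are ordered by mean level, and points are libraries. For mt-Co1 the cKO naive mean is 3220 CPM, below the means of the other 3 groups, 11647 CPM in cKO effector, 9860 CPM in WT effector and 10540 CPM in WT naive cells.

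Mitochondrial mRNAs rose in cKO cells, whereas their median log2 fold change in WT cells was -0.29. Of the 13 mRNAs 12 had a positive difference and mt-Nd3 a negative one, with a median of 1.79. The mitochondrial share of reads was 2.26 ± 0.05% in cKO effector, 0.85 ± 0.08% in cKO naive, 1.93 ± 0.06% in WT effector and 2.19 ± 0.23% in WT naive libraries (SD, n = 3 each). mt-Co1 averaged 11647 CPM in cKO effector, 3220 CPM in cKO naive, 9860 CPM in WT effector and 10540 CPM in WT naive cells, a difference of 2.05 (SE 0.09, edgeR adjusted p = 2.8e-12). mt-Cytb (1.99), mt-Nd6 (1.79), mt-Co2 (2.59), mt-Co3 (2.20) and mt-Atp6 (2.05) followed, the last 3 at far lower levels, with mt-Co2 at 69.0 CPM in cKO effector, 13.3 CPM in cKO naive, 59.5 CPM in WT effector and 63.9 CPM in WT naive cells.

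The effector genes themselves differed less uniformly. Of 19 cytotoxic genes 6 had a positive and 3 a negative difference. Gzmb had a difference of -2.30 (SE 0.23, edgeR adjusted p = 3.4e-07), with naive levels of 5.60 CPM in cKO and 1.02 CPM in WT cells, and Prf1 one of 1.45 (SE 0.09, edgeR adjusted p = 2.0e-10). Several of the largest negative differences belonged to genes that were almost without reads in WT naive cells: Lgals3, Itga1 and Fcgr2b had 0 reads there and Ccl3 had 1 read. The difference of Fcgr2b was no longer called without cKO naive replicate 1 (edgeR adjusted p = 0.051). Lgals3, the gene of galectin 3, had 120 CPM in cKO effector and 0.70 CPM in cKO naive libraries, and it was at least 2378-fold higher in WT effector than in WT naive cells, taking 3 reads over the group as the floor. With the cKO ratio taken as measured, the difference of Lgals3 was therefore -3.80 or lower. On the same terms that of Itga1 was -3.32 or lower and that of Fcgr2b -1.89 or lower. These limits use library totals without TMM, unlike the fitted differences, and leave out the error of the cKO ratio. For Fcgr2b that ratio rests on 0.52, 0.13 and 0.13 CPM in the cKO naive libraries. Fosb differed by -4.43 and Fos by -2.33. Of 20 inhibitory receptor genes 10 had a negative difference and 1 a positive one.

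Genes of the naive state differed in both directions. Of 42 tested, 15 had a positive and 8 a negative difference, with a median of 0.09. Il7r had a difference of 1.02 (SE 0.07, edgeR adjusted p = 1.2e-09) and Ccr9 one of -0.78 (SE 0.13, edgeR adjusted p = 2.0e-04). Outside that list, the protease-activated receptor gene F2rl1 had a difference of 2.48 and H2-Ob, an MHC class II-like gene, one of 2.05. F2rl1 was lower in cKO naive cells (28.0 CPM) than in WT naive cells (88.4 CPM), and so was H2-Ob (37.3 and 89.5 CPM). Hspa1b, the inducible heat shock protein, averaged 17.0 CPM in cKO effector, 3.77 CPM in cKO naive, 18.6 CPM in WT effector and 18.8 CPM in WT naive cells, a difference of 2.30 (SE 0.23, edgeR adjusted p = 3.9e-07). Hspa9 fell further in cKO than in WT cells (-0.55, SE 0.08, edgeR adjusted p = 5.6e-05).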

How the data were processed

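Of the study's 18 poly-A RNA sequencing libraries, 12 were used. The authors deposited a signal per gene, read counts divided by a size factor, in 1 table for effector and 1 for naive cells. Per the submitters' processing notes, the tools were DESeq2 1.42.0, featureCounts 2.0.6, HISAT2 2.2.1 and fastp, and the build was GRCm39; the strand setting of the counting is not given in the sources used here.

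Each column was divided by its smallest positive value, which gave whole reads for 100% of values within 1e-05. The tables were joined by gene ID. Of 21326 genes in both tables, 651 on X or Y were left out, leaving 20675. Because the tables had been scaled separately, the recovered reads of the libraries in a fit were normalized together by TMM. edgeR 4.0.16 (quasi-likelihood test, R 4.3.3) was fitted to genes with at least 10 reads in at least 3 libraries, with Benjamini-Hochberg adjustment over all tested genes, for the 6 cKO libraries and, with an interaction term, for the 12 cKO and WT libraries. Levels set beside WT values and marker sums are on the scale of the 12 libraries, which is that of library totals without TMM. The fitted differences beside them used TMM, so ratios of these levels do not give them exactly. Levels of X and Y genes are also on library totals, and all others on TMM of the 6 libraries. DESeq2 1.42.0, limma 3.58.1 (voom), other scalings, no filter, a replicate block and leaving out each library were alternatives.

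Named genes are Hspa9, the key members of each of 51 lists (1531 genes, 1430 tested), up to 3 further members per list by adjusted p, and the 10 largest changes per direction among genes that passed the test, whose groups did not overlap and whose log2 CPM averaged 4 or more (8 per direction for the difference); some of them are not reported here. The comparison, lists, motifs and printed promoters were chosen with earlier results of these data known. Promoters are from RefSeq (GRCm38.p6) and were matched by symbol. In tests on simulated data, the 6-library fit recovered 17, 42, 48 and 50 of 50 genes changed 1.25-, 1.5-, 2- and 4-fold. It called 13 of 13508 unchanged genes, and the interaction recovered 2, 30, 45 and 50 of 50. Most of the 13708 genes in the 6-library test were left unchanged, whereas 10132 of 14007 were called in the cKO comparison. Recovery with most genes changed was not tested. Intervals and floors (3 reads over a group) cover counting error only, and limits on differences leave out the error of the cKO ratio. The ratios, floors and limits given with them use library totals without TMM.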

Additional observations from a re-analysis of the deposited data

Results flagged for a closer look

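The effector over naive change differed between cKO and WT cells, by edgeR's interaction term, for 32 genes given in the report. The difference, cKO minus WT on the log2 scale, was negative for Cox6a2 (-7.30), Trib3 (-6.01), Soat2 (-5.93), Cdkn1a (-5.40), Niban1 (-4.68), Fosb (-4.43), Atf5 (-3.82) and Mki67 (-3.35). It was also negative for Cdk1 (-2.97), Top2a (-2.80), Fos (-2.33), Gzmb (-2.30), Slc7a5 (-2.25), Aars (-2.08), Ddit3 (-1.61), Ccr9 (-0.78) and Hspa9 (-0.55). Cox6a2 and Cdkn1a averaged 0.13 and 0.08 CPM in WT naive cells, so the sizes of their differences rest on few reads. For Lgals3, Itga1 and Fcgr2b, with 0 reads in WT naive libraries, the fitted values of -6.73, -6.19 and -4.90 depend on the prior count. Taking 3 reads over the group as the floor, the differences were -3.80 or lower, -3.32 or lower and -1.89 or lower. These limits take the cKO ratio as measured, leave out its error and use library totals without TMM. Ccl3 (-4.44) had 1 read in WT naive libraries. On library totals its WT ratio was 3313 with a 95% interval of 594 to 130900 for counting error only. Positive differences were found for mt-Co2 (2.59), F2rl1 (2.48), Hspa1b (2.30), mt-Co3 (2.20), mt-Co1 (2.05), H2-Ob (2.05), mt-Atp6 (2.05), mt-Cytb (1.99), mt-Nd6 (1.79), Prf1 (1.45) and Il7r (1.02).

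Signal was present in genes left out of the comparison. In the cKO naive libraries the Y-linked genes Ddx3y, Eif2s3y, Kdm5d and Uty averaged 187, 109, 82.1 and 31.3 CPM, with 0 reads in the WT naive libraries.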

How the results depend on the processing

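All 88 alternative counts of called genes lay within 1.5 times of the counts reported. For effector against naive cKO cells, DESeq2 called 4936 genes higher and 4756 lower, limma voom 5063 and 5094, DESeq2 size factors 5120 and 5001, no filter 5340 and 5413, unlisted genes taken as 0 gave 5142 and 5148, and the fit of 12 libraries 5134 and 5216. Leaving out each library gave 4396 to 4839 higher and 4588 to 4804 lower genes, and for the difference between genotypes 1068 to 1507 positive and 1457 to 1832 negative genes. With 1 cKO library out, the fit of the cKO libraries tested 13325 to 13416 genes in place of 14007. A gene with reads in the reduced group alone cannot reach the 3 libraries of the filter, so such genes were not checked there. Library totals gave 4093 and 6337, and there the calls of Cd3e, Gimap5, Rplp0 and Atf4 were lost while F2rl1, Jun and Sod2 became called as lower. No named gene reversed in a setting in which it was tested. Of 599 alternative medians of 43 lists, 142 moved beyond the spread set for them and none changed sign; 6 other lists whose median changed sign under library totals are given by counts only.

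Same-numbered effector and naive libraries had correlations of -0.040, -0.024 and -0.017, and differently numbered ones -0.035 to 0.065. These values do not set the same-numbered pairs apart. Whether libraries of the same number share a mouse was not tested. With a replicate block 4965 genes were higher and 4951 lower, and the difference was called for 1219 positive and 1622 negative genes.

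With 3 libraries a group an exact permutation test cannot go below 0.1, and genes with few reads in one state have only a bounded ratio.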
